A study of Mus musculus with 6 samples.

Results

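The 43 genes described here encode enzymes and transporters of glycolysis, of the pentose phosphate pathway and of the citrate cycle, with the steps that join them around pyruvate. They were chosen by gene symbol from a list of these pathways. All 43 were found among the 31641 genes of the count table, and all 43 passed the filter on low counts. RNA selected for poly(A) was sequenced from E14, an established mouse embryonic stem cell line. There were 3 knockdown libraries (KD), labelled Nat10 KD and grown with doxycycline, and 3 control libraries (CON), labelled Nat10 WT and grown without it. The series asks what Nat10, an RNA acetyltransferase, does for pluripotency. Doxycycline was given to every KD culture and to no CON culture, so the effect of the drug and that of the knockdown cannot be told apart. The labels give neither the knockdown construct, nor the number of clones, nor the length of treatment.

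Glycolysis turns glucose into pyruvate in the cytosol and yields ATP, and pyruvate is either reduced to lactate and exported or carried into mitochondria and oxidised to acetyl-CoA. The citrate cycle oxidises acetyl-CoA, and the pentose phosphate pathway branches off after the first step of glycolysis to make NADPH and ribose phosphate for nucleotides. Many steps are carried out by isozymes, related proteins from separate genes that differ in tissue and regulation. Naive mouse embryonic stem cells use both glycolysis and mitochondrial oxidation.

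The libraries held from 33770755 to 39524273 counts in KD and from 35304394 to 39450202 in CON. Nat10 had 1100, 1164 and 1050 counts in the KD libraries, against 4960, 5496 and 4877 in the CON libraries, so the targeted gene was lower in each library labelled KD. All 12 listed stem cell markers were detected in both groups, with a summed level of 2696 to 2823 CPM (counts scaled to a fixed library total) in KD and 7696 to 7731 CPM in CON. Of 10 markers of fibroblast feeder cells, 8 were measured, with summed levels of 54.2 to 60.0 CPM in KD and 25.7 to 29.7 CPM in CON. Most of that sum came from Pdgfrb, with a mean of 27.3 CPM in KD and 11.1 CPM in CON, and Col1a2, with 16.6 CPM in KD and 1.53 CPM in CON. Col1a1 averaged 4.40 CPM in KD and 2.5 CPM in CON, Pdgfra 2.80 CPM in KD and 1.63 CPM in CON, and Thy1 5.46 CPM in KD and 10.9 CPM in CON. The other 3 measured were at or near 0, with means of 0.0182 CPM in KD and 0.0682 CPM in CON for Col3a1, 0.0318 CPM in KD and 0 CPM in CON for Fap, and 0.217 CPM in KD and 0.0780 CPM in CON for Postn. The part of either marker list in the results was not tested. KD-3 stood somewhat apart from the other KD libraries. The chi-square per degree of freedom between its counts and those of the other KD libraries was 14.3 and 10.7, against 3.00 between the first and second KD libraries and 2.69 to 5.03 between CON libraries. Whether each library is a culture of its own is not in the labels, and the spread behind every p-value may therefore be technical. In bulk RNA, fewer cells of a type and less RNA per cell cannot be told apart.

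Promoter windows from RefSeq (GRCm38.p6) were found for 41 of the 43 genes, 62 windows in all, since some genes have several starts, and motifs were counted in the 250 bases before each start. The 250 bases before the start are shown for Pck2, Hk2, Hk1 and Pfkp because Pck2 and Pfkp had the largest falls and the hexokinase genes moved apart. Capitals mark matches on either strand to TGATGNAA, the core of the C/EBP-ATF response element read by ATF4. They also mark, on either strand, ACGTG, a form of the core of the hypoxia response element, whose form GCGTG was not counted. ACGTG also lies within CACGTG, the E-box read by MYC-family factors, which none of these 4 windows holds.
Pck2, chr14:55540016-55540265, forward strand: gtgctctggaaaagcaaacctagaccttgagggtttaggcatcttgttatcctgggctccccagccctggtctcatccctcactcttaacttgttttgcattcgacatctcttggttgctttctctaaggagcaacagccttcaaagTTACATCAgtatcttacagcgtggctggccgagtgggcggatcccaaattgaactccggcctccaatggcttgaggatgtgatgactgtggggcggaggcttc
Hk2, chr6:82774455-82774704, reverse strand: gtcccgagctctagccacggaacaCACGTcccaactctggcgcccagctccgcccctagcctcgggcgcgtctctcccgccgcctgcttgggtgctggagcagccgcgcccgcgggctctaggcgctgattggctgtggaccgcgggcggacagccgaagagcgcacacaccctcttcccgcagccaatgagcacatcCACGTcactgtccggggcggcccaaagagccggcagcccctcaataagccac
Hk1, chr10:62379909-62380158, reverse strand: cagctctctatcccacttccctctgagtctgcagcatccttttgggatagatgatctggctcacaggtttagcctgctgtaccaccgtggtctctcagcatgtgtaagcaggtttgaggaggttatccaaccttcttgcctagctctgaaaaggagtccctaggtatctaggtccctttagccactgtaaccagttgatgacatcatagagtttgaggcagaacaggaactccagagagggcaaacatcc
Pfkp, chr13:6648772-6649021, reverse strand: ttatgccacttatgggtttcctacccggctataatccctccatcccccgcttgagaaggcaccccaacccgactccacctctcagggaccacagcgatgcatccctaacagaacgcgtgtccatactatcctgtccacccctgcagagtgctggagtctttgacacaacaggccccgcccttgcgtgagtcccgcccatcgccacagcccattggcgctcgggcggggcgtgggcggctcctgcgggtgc
The Pck2 window holds the only match to TGATGNAA among the 62 windows, with its first base at -103 from the start. The Hk2 window holds 2 matches to ACGTG, at -226 and -52, and the Hk1 and Pfkp windows hold no ACGTG. The Pck2 and Pfkp windows hold the uncounted form GCGTG. Hk1 has a further RefSeq start, and the 250 bases before that start hold no ACGTG. Which Hk1 start these cells use was not measured. Slc2a3 and Idh3a had no window.

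Across the members, ACGTG was found in 15 of 41 genes with a window (36.6%), against 18.5% of all 27025 genes with a window. It was present in 5 of 17 genes that rose in KD (29.4%) and in 10 of 21 that fell (47.6%). CACGTG was found in 14.6% of the member genes and in 6.86% of all genes, and TGATGNAA in 2.44% and 3.91%. The GC box GGGCGG, which follows base composition, was present in 75.6% of member genes and 35.4% of all genes, and in 58.8% of the genes that rose and 85.7% of those that fell. ACGTG and CACGTG hold the pair CG as the GC box does. The shares were not matched for base composition, for expression or for windows per gene. Members had 62 windows for 41 genes, and all genes 32851 windows for 27025. Enrichment of a motif was not tested. Matches are letters in a window, and binding was not measured.

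Of the 43 members, 17 rose and 22 fell in KD, and 4 did not pass (edgeR quasi-likelihood test, Benjamini-Hochberg adjusted p under 0.05 over 18019 genes). The share that changed, 90.7%, stood beside 63.0% of all genes tested, of which 32.2% rose and 30.8% fell. Members are abundant genes. Among the 7921 genes at or above the level of the least abundant member, Eno2 (22.2 CPM), 77.0% changed, 32.3% upwards and 44.7% downwards. The members' median log2 fold change was -0.10, against 0.02 over all genes tested and -0.08 over the genes at or above the level of Eno2. Their median absolute change was 0.52 on the log2 scale, against 0.33 for the genes at or above the level of Eno2. Levels did not overlap between the groups for 42 members, where 67.1% of all tested genes showed no overlap. The exception was Aco1.

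Levels below are CPM scaled by TMM, a method that assumes most genes do not change between libraries. Scaled by library size only, every log2 fold change was higher by about 0.23, and 22 members rose, 13 fell and 8 did not pass. All 13 falls under that scaling were falls here, and all 17 rises here were rises there. The 8 members whose sign turned were Gpi1, Tpi1, Slc16a1, Tkt, Taldo1, Cs, Aco1 and Fh1, all within 0.23 of 0. Without KD-3, 17 rose and 23 fell.

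**Figure D1:**
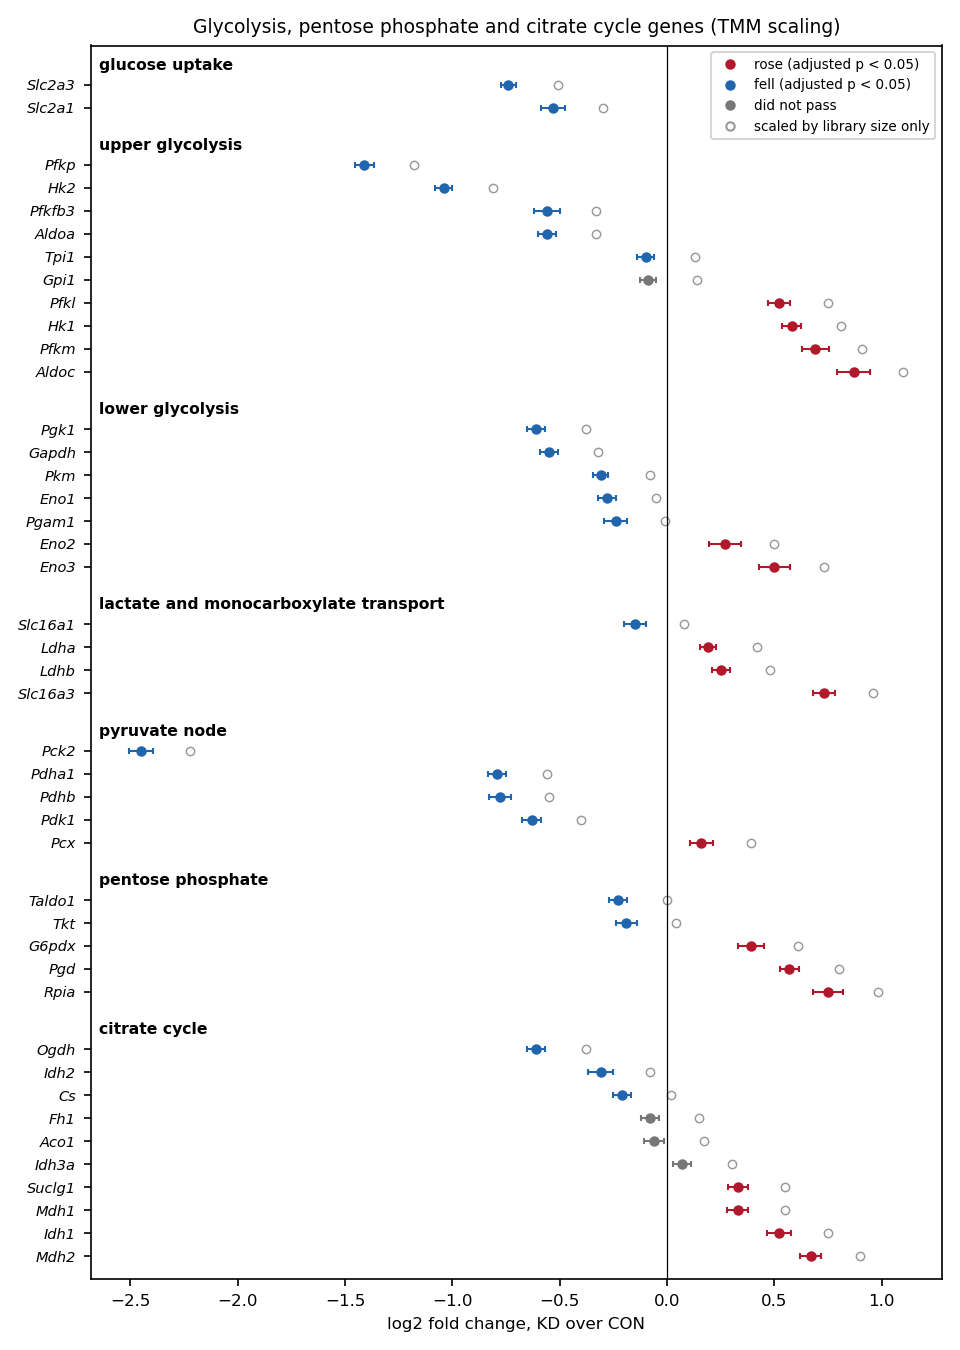
Log2 fold change, KD over CON, of the 43 members by step, with filled points and SE bars from edgeR with TMM scaling (red rose, blue fell, grey did not pass) and open circles for scaling by library size only. Every glycolytic family with several isozymes in the upper and lower pathway has members on both sides of 0 with TMM scaling, and Pck2 lies farthest from 0 at -2.45.

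Glucose enters through facilitative transporters, and both that were listed fell. Slc2a3, the high-affinity transporter also called GLUT3, had 2431, 2413 and 2474 CPM in the KD libraries, against 4155, 4038 and 4056 CPM in the CON libraries. It fell 1.67-fold (log2 fold change -0.74, SE 0.034, edgeR adjusted p = 5.75e-11). Slc2a1, the widely expressed transporter GLUT1, had 465, 461 and 401 CPM in KD and 608, 654 and 653 CPM in CON, a 1.44-fold fall (edgeR adjusted p = 5.42e-07). KD-3 was the lowest of all for Slc2a1, and without it the log2 fold change was -0.47 in place of -0.53. Per kilobase of transcript, Slc2a3 was the more abundant in both groups, at 337 ± 4.27 CPM per kilobase in KD and 564 ± 8.66 in CON, against 126 ± 10.3 and 182 ± 7.53 for Slc2a1 (SD, n = 3 each). The ratio of Slc2a3 to Slc2a1 was 2.53, 2.54 and 2.99 in KD and 3.31, 2.99 and 3.01 in CON, so KD-3 lay at the level of CON.

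The hexokinases, which trap glucose as glucose phosphate, moved in opposite directions. Hk2, the inducible isozyme that is abundant in stem and tumour cells, had 335, 334 and 343 CPM in KD and 670, 711 and 700 CPM in CON. This was a 2.06-fold fall (edgeR adjusted p = 8.88e-12). Hk1, the isozyme of brain and most adult tissues, had 192, 186 and 189 CPM in KD and 125, 127 and 128 CPM in CON, a 1.49-fold rise (edgeR adjusted p = 1.37e-08). No KD library reached the range of CON for either gene. Because Hk2 was the more abundant, the summed level of both fell 1.67-fold, to 78.7 ± 0.974 CPM per kilobase in KD against 131 ± 3.70 in CON (SD, n = 3 each). Hk1 made up 28.2 ± 0.45% of the pair in KD and 11.3 ± 0.21% in CON. The ratio of Hk2 to Hk1 was 2.49, 2.57 and 2.60 in KD and 7.65, 7.98 and 7.84 in CON, a difference of -1.62 on the log2 scale. Hk2 spans 82725025 to 82774454 of chromosome 6 and Hk1 62268855 to 62379908 of chromosome 10 (GRCm38, GENCODE M21). Hk1 shares 157 exonic bases with Hk1os on the opposite strand, and reads there cannot be assigned without strand.

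Phosphofructokinase commits sugar to glycolysis, and its 3 isozymes changed rank. Pfkp, the platelet type, had 160, 166 and 175 CPM in KD and 443, 444 and 445 CPM in CON, a 2.66-fold fall (log2 fold change -1.41, SE 0.044, edgeR adjusted p = 1.02e-12). Pfkl, the liver type, had 401, 388 and 358 CPM in KD and 251, 277 and 271 CPM in CON, a 1.44-fold rise. Pfkm, the muscle type, had 68.8, 60.7 and 60.7 CPM in KD and 39.5, 38.9 and 39.9 CPM in CON, a 1.61-fold rise. The groups overlapped for none of the 3 (edgeR adjusted p = 3.09e-07 for Pfkl and 1.45e-07 for Pfkm). Per kilobase, Pfkp was the second of the family in CON (33.1 ± 0.0552, behind 39.9 ± 2.06 for Pfkl) and the lowest in KD (12.5 ± 0.580, behind 57.3 ± 3.33 for Pfkl and 19.0 ± 1.40 for Pfkm; SD, n = 3). Its share of the family was 12.9, 14.0 and 15.4% in KD and 40.1, 38.4 and 38.7% in CON. The summed level overlapped between the groups, at 92.6, 88.8 and 84.9 CPM per kilobase in KD and 82.4, 86.2 and 85.8 in CON. With libraries scaled by size only, that sum was higher in KD by 0.29 on the log2 scale, against 0.07 here. These shares and sums depend on the exon length each gene was divided by, 13401 bases for Pfkp, 6675 for Pfkl and 3340 for Pfkm. In CPM without that division, Pfkp was the highest of the 3 in CON and lay between Pfkl and Pfkm in KD. The sum of the 3 in CPM was then lower in each KD library than in any CON library. The ratio of Pfkp to Pfkl was lower in KD by 3.82-fold, which neither library scaling nor gene length changes. Pfkfb3, which makes the sugar phosphate that activates phosphofructokinase, had 32.9, 32.2 and 30.2 CPM in KD and 48.0, 46.7 and 46.0 CPM in CON, a 1.48-fold fall. The 748 exonic bases that Pfkp shares with Pitrm1 on the other strand are a small part of its exon length of 13401 bases. The gene spans 6579768 to 6648777 of chromosome 13.

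Aldolase splits the sugar, and again the main isozyme fell while a minor one rose. Aldoa, the muscle and general type, had 973, 956 and 895 CPM in KD and 1341, 1400 and 1408 CPM in CON, a 1.47-fold fall. Aldoc, the brain type, had 44.1, 41.0 and 42.5 CPM in KD and 23.2, 25.7 and 20.8 CPM in CON, a 1.83-fold rise. Every KD library lay outside the range of CON for both genes (edgeR adjusted p = 1.39e-08 for Aldoa and 9.89e-08 for Aldoc). Aldoc was still only 3.88 ± 0.19% of the pair in KD, against 1.48 ± 0.16% in CON (SD, n = 3 each), so the summed level fell 1.43-fold with Aldoa. Tpi1, triosephosphate isomerase, fell 1.07-fold (edgeR adjusted p = 0.0389), and Gpi1, which converts glucose phosphate to fructose phosphate, had 572 ± 8.35 CPM in KD and 607 ± 13.8 CPM in CON and did not pass (edgeR adjusted p = 0.0617). For Tpi1 the call was lost in 6 alternatives and its sign turned with libraries scaled by size only, as it did for Gpi1. Gpi1 shares 741 exonic bases with Gm26762 on the opposite strand.

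**Figure D2:**
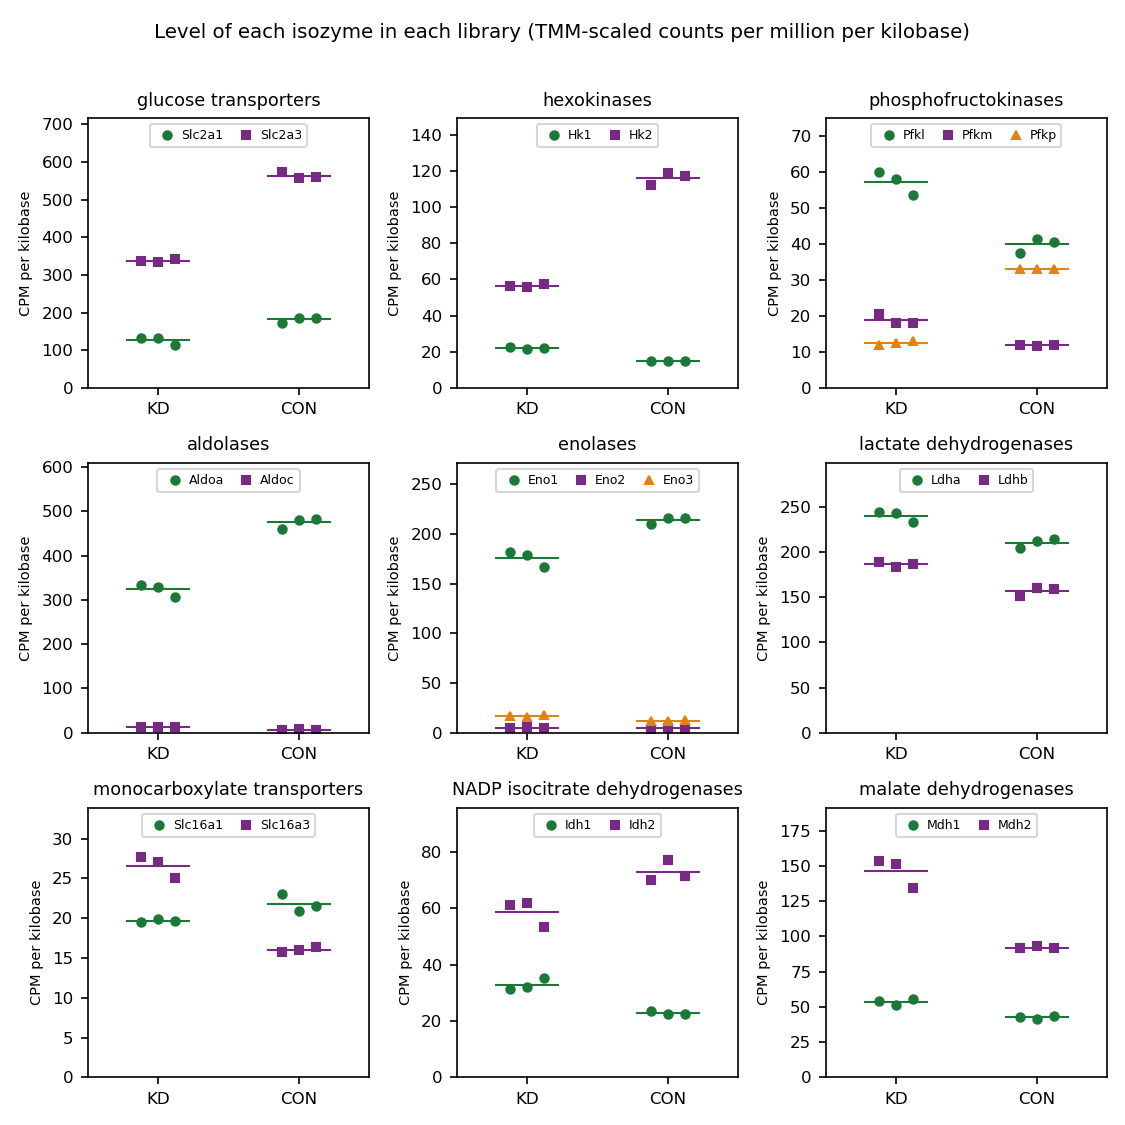
Level of each isozyme in each library, in TMM-scaled CPM per kilobase of transcript, with KD left of CON; each point is a library and each line the mean of 3. Per kilobase, Pfkp lies below Pfkm in KD and well above it in CON. In CPM not divided by length, Pfkp lay above Pfkm in both groups. Slc16a3 lies above Slc16a1 in KD and below it in CON.

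In lower glycolysis, which yields ATP, 5 of 7 members fell, all the abundant ones among them, and 2 rose. Gapdh, the dehydrogenase that makes NADH, was the most abundant member per kilobase in both groups, with 5164, 5059 and 4738 CPM in KD and 6986, 7527 and 7388 CPM in CON, a 1.46-fold fall (edgeR adjusted p = 1.29e-08). Pgk1, the first ATP-forming kinase of the pathway, had 463, 463 and 497 CPM in KD and 719, 726 and 728 CPM in CON, a 1.53-fold fall. Pkm, pyruvate kinase, fell 1.24-fold and the mutase Pgam1 1.18-fold. With libraries scaled by size only, Gapdh and Pgk1 still fell, by 0.32 and 0.38 on the log2 scale, while Pkm and Pgam1 did not pass (edgeR adjusted p = 0.0631 and 0.853). The counts are per gene, so the splice forms of Pkm are not separated. Processed pseudogenes of Gapdh, Pgk1 and others can share reads with them. The 6 rows named as pseudogenes of members held at most 68 counts in any library. Pseudogenes under other symbols were not looked for, so the extent of shared reads was not measured.

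The enolases followed the pattern of the aldolases. Eno1, the general type, had 976, 961 and 897 CPM in KD and 1127, 1159 and 1159 CPM in CON, a 1.22-fold fall that did not pass with libraries scaled by size only (log2 fold change -0.05, edgeR adjusted p = 0.261). Eno2, the neuronal type, had 24.0, 25.3 and 23.6 CPM in KD and 19.3, 21.7 and 19.4 CPM in CON, a 1.21-fold rise. Eno3, the muscle type, had 29.8, 28.0 and 31.2 CPM in KD and 21.2, 19.9 and 21.7 CPM in CON, a 1.42-fold rise. Both minor types were higher in every KD library than in any CON library (edgeR adjusted p = 0.0056 for Eno2 and 2.05e-05 for Eno3). Eno1 made up 88.7 ± 0.75% of the family in KD and 92.9 ± 0.15% in CON. The ratio of Eno3 to Eno2 overlapped between the groups, at 3.36, 3.00 and 3.57 in KD and 2.97, 2.48 and 3.03 in CON (exact permutation p = 0.2, two-sided, n = 3 each).

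Lactate dehydrogenase interconverts pyruvate and lactate, and its subunits rose in near equal measure. Ldha had 809, 807 and 773 CPM in KD and 678, 704 and 709 CPM in CON, a 1.14-fold rise, and Ldhb had 297, 288 and 294 CPM in KD and 237, 252 and 250 CPM in CON, a 1.19-fold rise (edgeR adjusted p = 4.69e-04 for Ldha and 8.98e-05 for Ldhb). Ldhb made up 43.6, 42.9 and 44.5% of the pair in KD and 42.4, 43.0 and 42.6% in CON. These shares overlapped (exact permutation p = 0.2 for the ratio, two-sided, n = 3 each). The difference in the log2 ratio was 0.06, with an SE of 0.057 from the fitted fold changes. That SE treats the 2 genes as independent, though both were measured in the same libraries. Between libraries, the log2 ratio had an SD of 0.047 in KD and 0.019 in CON.

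Monocarboxylate transporters carry lactate across the plasma membrane, and they changed order. Slc16a3, the transporter MCT4 of cells that export lactate, had 147, 144 and 133 CPM in KD and 83.5, 85.0 and 87.0 CPM in CON, a 1.66-fold rise (log2 fold change 0.73, SE 0.051, edgeR adjusted p = 7.34e-09). Slc16a1, the general transporter MCT1, had 86.2, 88.0 and 87.1 CPM in KD and 102, 92.6 and 95.1 CPM in CON, a 1.11-fold fall. That fall did not pass without CON-1 (edgeR adjusted p = 0.0778) and its sign turned with libraries scaled by size only. Slc16a3 held 58.7, 57.6 and 55.9% of the pair in KD and 40.5, 43.3 and 43.2% in CON.

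**Figure D3:**
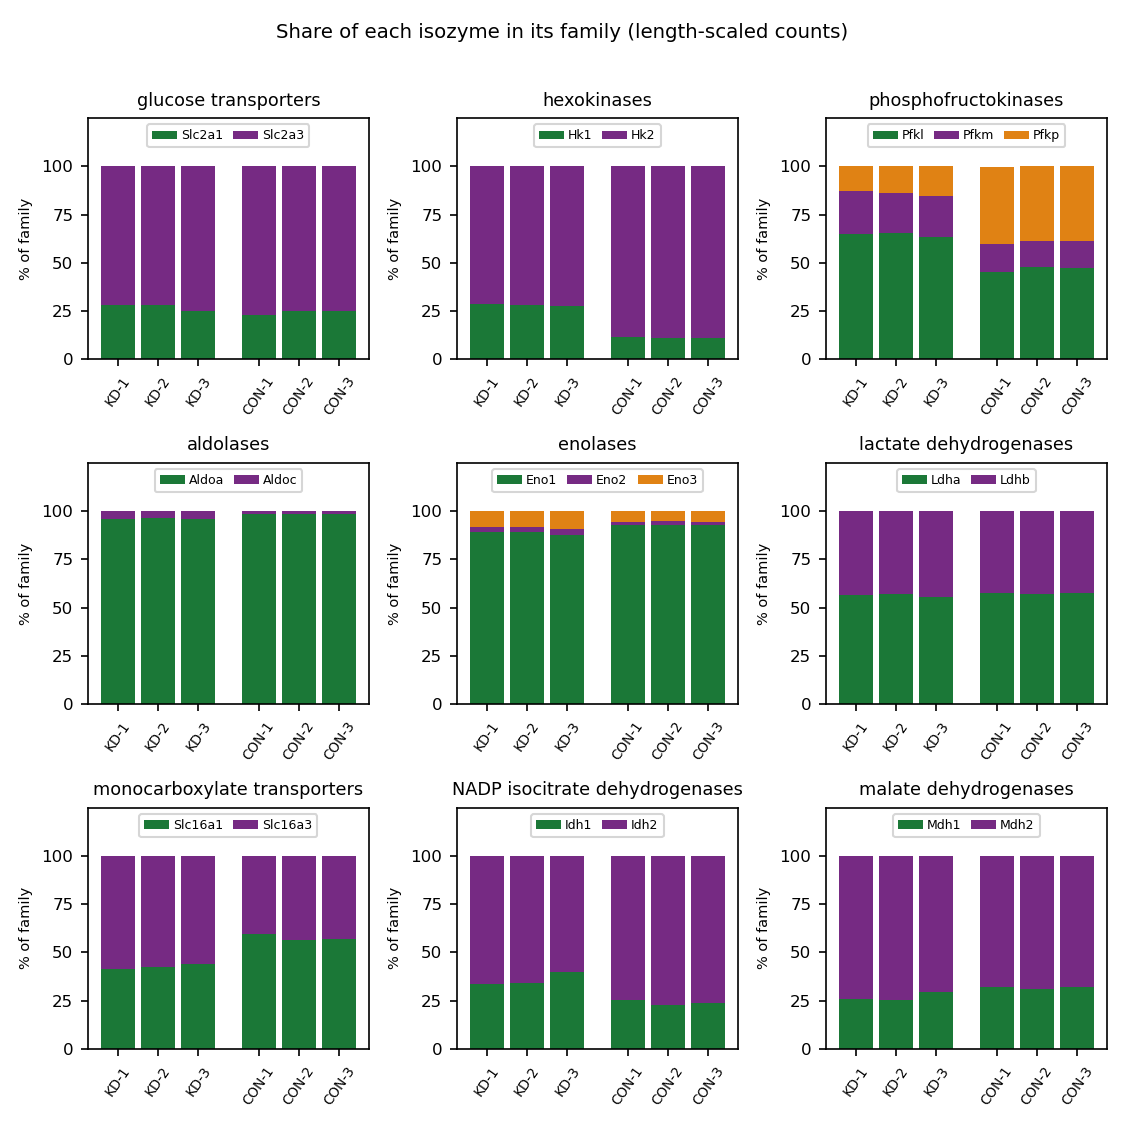
Share of each isozyme in the summed length-scaled counts of its family, in percent, for each library, with the KD libraries left of the CON libraries. Hk1 takes 28.2% of the hexokinase pair in KD and 11.3% in CON on average, Pfkp 14.1% and 39.1% of the phosphofructokinases, and the lactate dehydrogenases keep nearly the same split.

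Of the 13 isozyme ratios compared, 10 showed no overlap between the groups and gave the smallest p that 3 libraries against 3 allow (exact permutation p = 0.1, two-sided, adjusted p = 0.13 over the 13 pairs). That test cannot go below 0.1 with 3 libraries against 3, and no other test of the ratios was run. The other 3 were Pfkm to Pfkl, Eno3 to Eno2 and Ldhb to Ldha. In size, the shifts were led by Pfkp to Pfkm (-2.09 on the log2 scale), Pfkp to Pfkl (-1.93), Hk2 to Hk1 (-1.62) and Aldoc to Aldoa (1.43). The SD of a log2 ratio between libraries of a group was at most 0.20, for Idh2 to Idh1 in KD.

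At pyruvate and phosphoenolpyruvate, 4 of 5 members fell. Pck2, the mitochondrial phosphoenolpyruvate carboxykinase and a known target of ATF4, changed most of all members, with 36.8, 37.7 and 33.2 CPM in KD and 195, 197 and 194 CPM in CON. The gene spans 55540266 to 55551242 of chromosome 14. Pck2 fell 5.45-fold (log2 fold change -2.45, SE 0.055, edgeR adjusted p = 4.81e-14). Whether the match to TGATGNAA in the Pck2 window bears on this fall was not tested. Its cytosolic counterpart Pck1 was near the detection limit, with 14, 16 and 19 counts in KD and 15, 2 and 4 counts in CON (edgeR adjusted p = 0.168), and was named after its values were seen. Its log2 fold change was 0.98 with all libraries and 2.17 without CON-1, where it passed (edgeR adjusted p = 0.015). Pdha1 and Pdhb, the subunits of the first enzyme of pyruvate dehydrogenase, fell together. Pdha1 had 125, 127 and 127 CPM in KD and 214, 220 and 220 CPM in CON, a 1.73-fold fall. Pdhb had 110, 112 and 124 CPM in KD and 200, 195 and 201 CPM in CON, a 1.72-fold fall. Neither gene's libraries overlapped between the groups (edgeR adjusted p = 3.73e-10 for Pdha1 and 3.18e-09 for Pdhb).

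Pdk1, a kinase that inhibits pyruvate dehydrogenase, also fell, with 137, 131 and 141 CPM in KD and 213, 213 and 209 CPM in CON (1.55-fold, edgeR adjusted p = 8.16e-09). Both the enzyme's subunits and this inhibitor were thus lower in every KD library. Other kinases of this kind, from the further list described below and named after values were seen, did not fall. Pdk2 rose (log2 fold change 0.61, edgeR adjusted p = 5.8e-05), as did Pdk4 (0.52, edgeR adjusted p = 4.17e-05). Pdk3 did not pass (0.1, edgeR adjusted p = 0.162). Pcx, pyruvate carboxylase, which refills the citrate cycle with oxaloacetate, rose 1.12-fold, to 110 ± 5.94 CPM in KD against 98.5 ± 3.51 CPM in CON (edgeR adjusted p = 0.016, and above 0.05 when KD-1, KD-2, CON-1 or CON-3 was left out, with a range of 0.0620 to 0.105). Pdha1 shares 603 exonic bases with Map3k15 on the opposite strand.

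In the pentose phosphate pathway 3 of 5 members rose, both NADPH-forming dehydrogenases of the oxidative branch among them, and 2 fell. G6pdx, glucose phosphate dehydrogenase, which makes NADPH at the entry step, had 49.7, 51.1 and 54.1 CPM in KD and 37.7, 41.7 and 39.2 CPM in CON, a 1.31-fold rise. Pgd, the next NADPH-forming dehydrogenase, had 193, 186 and 187 CPM in KD and 124, 127 and 130 CPM in CON, a 1.48-fold rise (edgeR adjusted p = 2.18e-08). Pgls, the lactonase that acts between them and belongs to the further list, had 123, 112 and 80.7 CPM in KD and 79.2, 92.3 and 91.8 CPM in CON and did not pass (edgeR adjusted p = 0.0993). Its groups overlapped through KD-3, without which its log2 fold change was 0.42 (edgeR adjusted p = 1.77e-08) in place of 0.27. With libraries scaled by size only it was 0.50 and passed (edgeR adjusted p = 0.00487). Pgls was named after its values were seen. Rpia, the isomerase that makes ribose phosphate, had 29.7, 29.2 and 28.8 CPM in KD and 17.4, 17.5 and 17.1 CPM in CON, a 1.69-fold rise. The enzymes that return carbon to glycolysis fell, except with libraries scaled by size only. Tkt, transketolase, fell 1.14-fold and Taldo1, transaldolase, fell 1.17-fold, while under that scaling their log2 fold changes were 0.04 and 0.00 and did not pass. G6pdx shares 418 exonic bases with Ikbkg on the opposite strand.

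**Figure D4:**
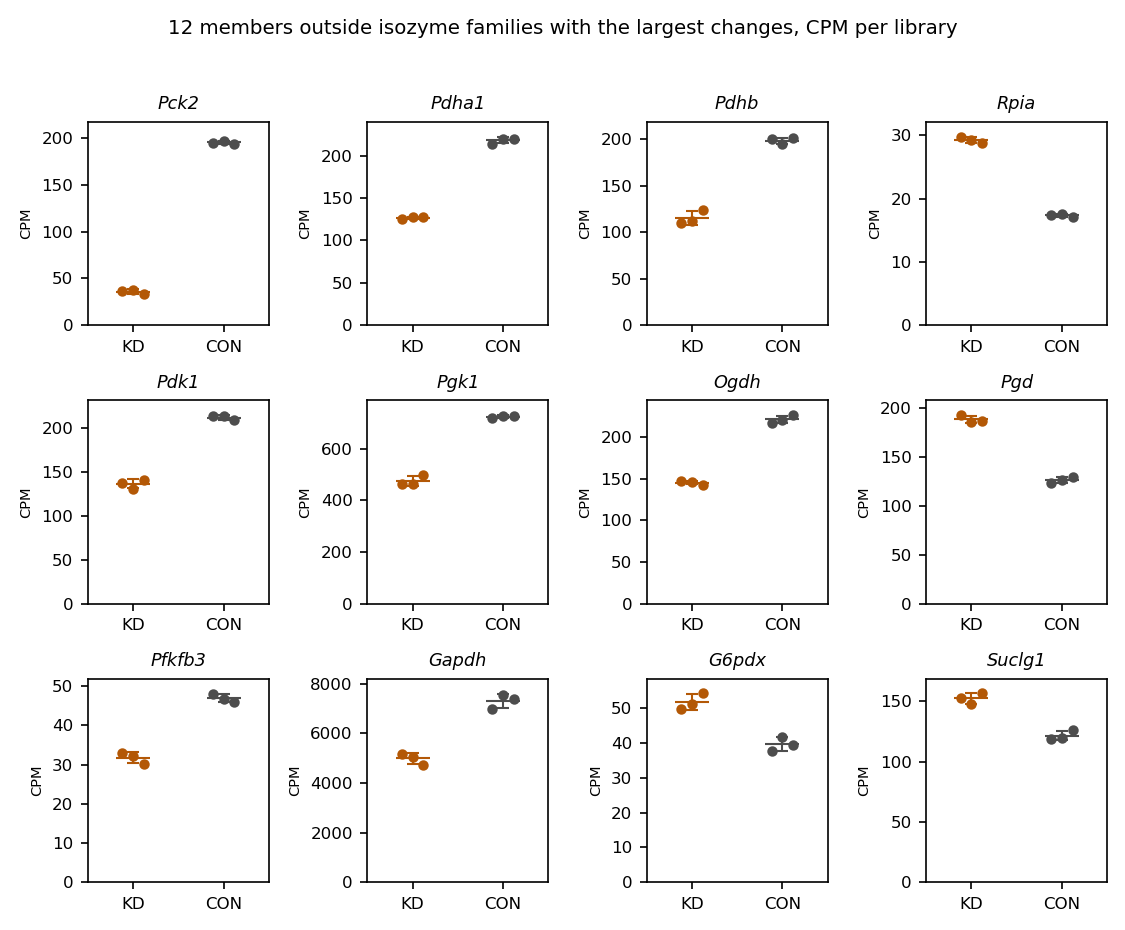
CPM in each library, KD left of CON, of the 12 members outside isozyme families that passed the test with the largest fold changes; each point is a library, each bar the mean with its SD (n = 3). No panel shows overlap between KD and CON, and Rpia, Pgd, G6pdx and Suclg1 are higher in KD, the other 8 lower.

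Of 10 citrate cycle members 4 rose, 3 fell and 3 did not pass, and the cytosolic and mitochondrial forms of an enzyme did not always move alike. Mdh2, the mitochondrial malate dehydrogenase that closes the cycle, had 548, 539 and 479 CPM in KD and 326, 331 and 326 CPM in CON, a 1.59-fold rise (log2 fold change 0.67, SE 0.049, edgeR adjusted p = 1.21e-08). Mdh1, its cytosolic counterpart, had 144, 136 and 148 CPM in KD and 115, 111 and 116 CPM in CON, a 1.25-fold rise. KD-3 held the lowest Mdh2 and the highest Mdh1 of its group, and Mdh2 was 70.7% of the pair there, against 74.0 and 74.8% in the other KD libraries and 67.7 to 69.1% in CON. Idh1 and Idh2, the cytosolic and mitochondrial isocitrate dehydrogenases that make NADPH, went apart. Idh1 had 86.4, 88.8 and 97.2 CPM in KD and 65.0, 62.7 and 62.0 CPM in CON, a 1.44-fold rise. Idh1 passed at an edgeR adjusted p of 8.35e-07. Idh2 had 158, 160 and 138 CPM in KD and 181, 199 and 185 CPM in CON, a 1.24-fold fall that did not pass with libraries scaled by size only (edgeR adjusted p = 0.241). Idh1 thus took 35.9 ± 3.3% of the pair in KD and 23.9 ± 1.2% in CON.

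Ogdh, the oxoglutarate dehydrogenase, fell 1.52-fold, with 147, 146 and 143 CPM in KD and 217, 220 and 226 CPM in CON (edgeR adjusted p = 7.28e-09). Suclg1, a subunit of succinate-CoA ligase, the next enzyme, had 153, 148 and 157 CPM in KD and 119, 120 and 126 CPM in CON, a 1.25-fold rise. These genes of neighbouring steps therefore differed in direction under every scaling tried. Subunits within a step differed too, since Suclg2, a partner of Suclg1, fell 1.29-fold (edgeR adjusted p = 1.33e-05). Dlst and Dld, further subunits of the oxoglutarate dehydrogenase complex, did not pass with TMM scaling (edgeR adjusted p = 0.311 and 0.701). They were named after values were seen. Cs, citrate synthase, fell 1.16-fold, with a log2 fold change of 0.02 that did not pass when libraries were scaled by size only. The members that did not pass were Aco1, the cytosolic aconitase that also senses iron (log2 fold change -0.06, SE 0.047), Idh3a, of the NAD-linked isocitrate dehydrogenase (0.07, SE 0.043), and Fh1, fumarase (-0.08, SE 0.042). With libraries scaled by size only, these passed as higher in KD, at 0.17, 0.30 and 0.15 on the log2 scale.

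A further list of 66 genes of the same pathways was compiled by role. Of its 63 genes with enough counts 23 rose, 17 fell and 23 did not pass, a share of 63.5% that changed, beside 63.0% of all genes tested. Scaled by library size only, 38 rose and 6 fell. The rises with the smallest p were led by H6pd, the enzyme that makes NADPH in the endoplasmic reticulum, which had 79.2, 77.8 and 71.0 CPM in KD and 35.7, 34.9 and 35.0 CPM in CON, a 2.16-fold rise (edgeR adjusted p = 3.47e-10). Bsg, the chaperone basigin that brings MCT1 and MCT4 to the cell surface, had 689, 687 and 636 CPM in KD and 401, 401 and 401 CPM in CON, a 1.67-fold rise beside that of Slc16a3. Acly, which makes cytosolic acetyl-CoA from citrate, rose 1.58-fold, Pgm1, which joins glycogen to glycolysis, 1.47-fold and the transporter gene Slc2a12 3.19-fold, to 4.67 ± 0.360 CPM in KD against 1.46 ± 0.276 CPM in CON.

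The falls with the smallest p were those of Pgam5, Suclg2, Pdha2, Me2 and Me1. Pgam5, a mitochondrial phosphatase despite its name, fell 1.51-fold. Suclg2, a partner subunit of Suclg1, fell 1.29-fold, to 111 ± 6.24 CPM in KD against 142 ± 2.82 CPM in CON. The malic enzymes Me1 and Me2, cytosolic and mitochondrial, each fell 1.28-fold, and Me1 did not pass with libraries scaled by size only (edgeR adjusted p = 0.0828). Pdha2, the testis form of Pdha1, had 66, 58 and 36 counts in KD and 118, 118 and 126 counts in CON. Dlat, the second enzyme of pyruvate dehydrogenase, was named after its values were seen. It rose 1.33-fold, to 135 ± 4.18 CPM in KD against 101 ± 3.89 CPM in CON, while Pdha1 and Pdhb of the same complex fell. Pdhx and Dld, also of that complex and named after values were seen, did not pass (edgeR adjusted p = 0.119 and 0.701).

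**Figure D5:**
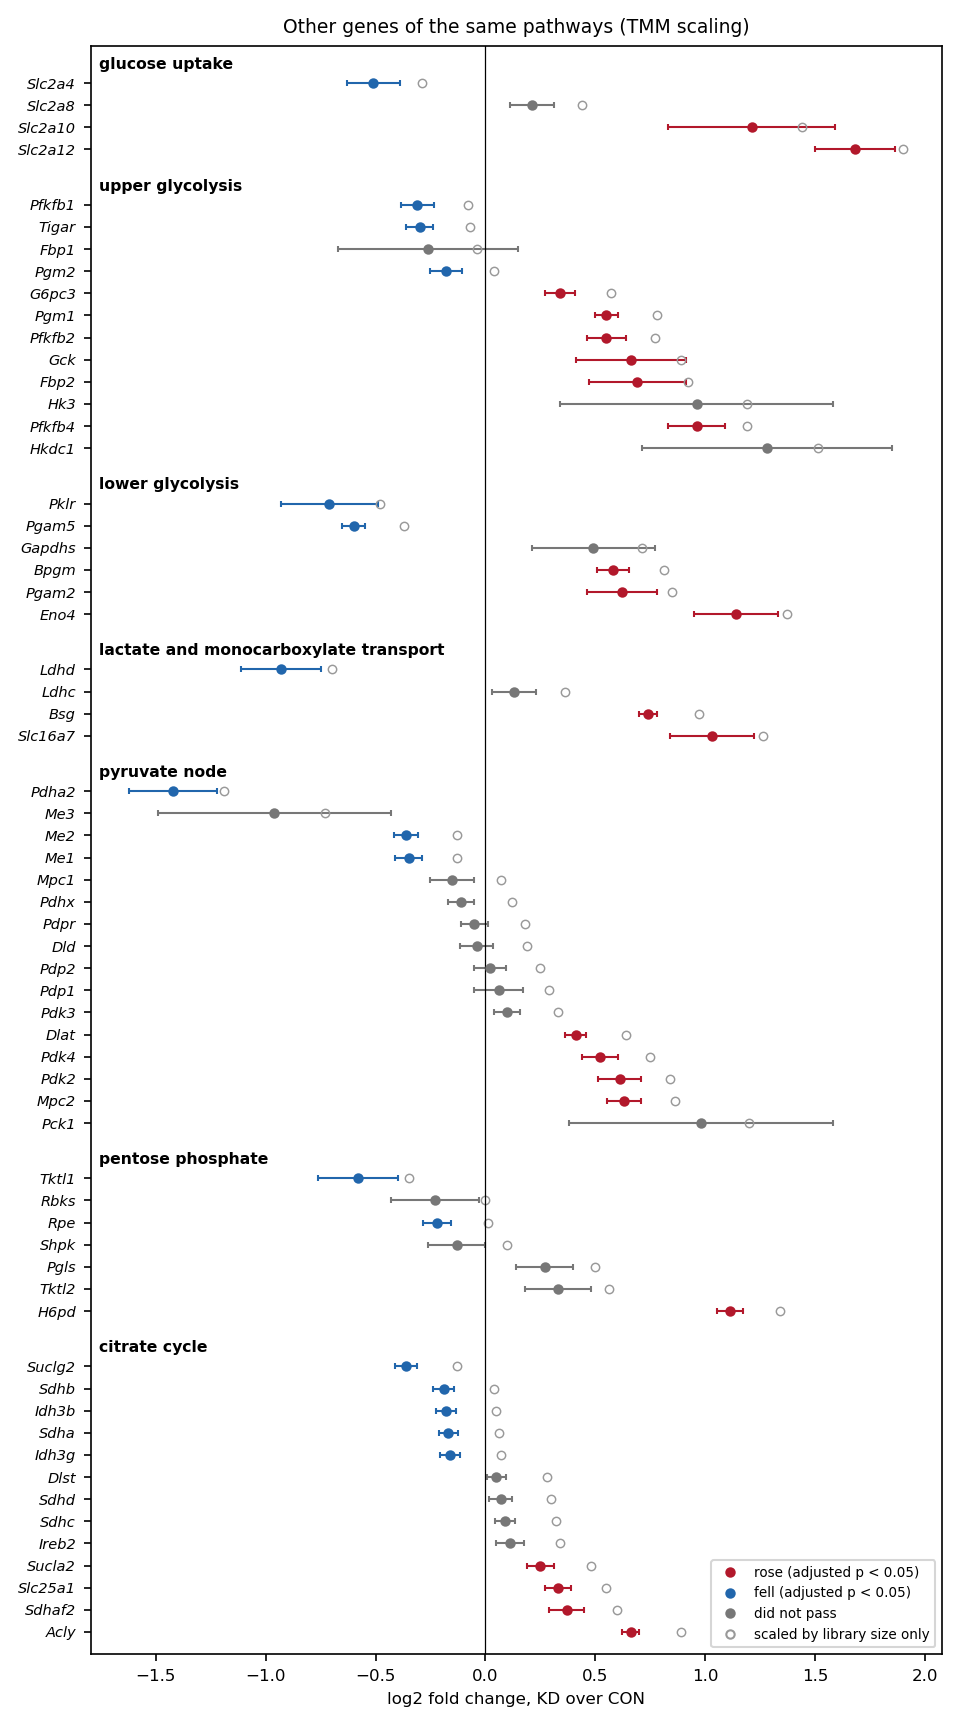
Log2 fold change, KD over CON, of 62 of the 63 tested genes of the further list by step, with filled points and SE bars from edgeR with TMM scaling and open circles for scaling by library size only. Rises and falls stand side by side in every step, from -1.42 for Pdha2 to 1.68 for Slc2a12.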

How the data were processed

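For each of 31641 genes the authors deposited unnormalised read counts, named as such in the file headers. Per the submitters' processing notes, FastQC 0.11.9, STAR 2.5.3a, featureCounts and build mm10 were used; the sources used here state no annotation, strand setting or treatment of reads with several matches. The FPKM values that the authors deposited gave each gene's length, and 42 of 43 members' lengths equalled their exons in GENCODE M21 (GRCm38). The authors' deposited table also holds log2 fold changes (CON over KD, from the values) and adjusted p-values from a test that no label or header names. Columns were matched to samples by treatment and number.

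In R 4.3.3, edgeR 4.0.16 was used with filterByExpr, TMM scaling (factors 1.08 to 1.084 in KD and 0.9222 to 0.9265 in CON) and the robust quasi-likelihood test, KD over CON, with Benjamini-Hochberg adjustment over 18019 genes. SEs were the absolute log2 fold change divided by the root of the F statistic. Isozyme ratios used counts plus 0.5 over length, with an exact permutation test. The script was tested on simulated counts. Before TMM, 1 count equalled between 0.0253 and 0.0296 CPM. Of counts from 1 to 20, between 70.0 and 71.7% were even, as when both mates of a pair are counted, so fits were repeated on counts divided by 2. The symbol Aldoa has 2 rows, and the one with more counts was used.

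The members, lists and tests were chosen with earlier results of these data known. Values per library are given for members of isozyme families and for the 12 other members with the largest changes that passed, and the 5 rises and 5 falls with the smallest p are named from the further list. In the further list, 1 gene is counted but not reported here. Family shares and sums were added after the values were seen. Alternatives were other scalings, filters, DESeq2 1.42.0, each library left out, a replicate block and another added count.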

Additional observations from a re-analysis of the deposited data

How the results depend on the processing

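Of the 43 members, 29 kept their direction and their side of the threshold in all 13 alternatives. Scaling by library size only moved the most. With it 8280 genes rose and 3535 fell, against 5801 and 5543 with TMM, 13 members fell in place of 22, and 38 genes of the further list rose and 6 fell in place of 23 and 17. The sign turned for Gpi1 (0.14), Tpi1 (0.13), Slc16a1 (0.08), Tkt (0.04), Taldo1 (0.00), Cs (0.02), Aco1 (0.17) and Fh1 (0.15) on the log2 scale, since that scaling adds about 0.23 to every log2 fold change. Which scaling is nearer to the RNA per cell cannot be told from these data. Leaving out a library gave 16 to 17 member rises and 21 to 23 falls, 22 to 26 and 15 to 19 in the further list, and 5247 to 5944 and 5136 to 5862 over all genes. The isozyme ratios ranged, with each library left out, from -2.16 to -2.00 for Pfkp to Pfkm, -2.02 to -1.87 for Pfkp to Pfkl, -1.63 to -1.60 for Hk2 to Hk1, -0.90 to -0.71 for Idh2 to Idh1, -0.29 to -0.16 for Slc2a3 to Slc2a1, 0.03 to 0.08 for Ldhb to Ldha, 0.12 to 0.20 for Pfkm to Pfkl, 0.14 to 0.30 for Eno3 to Eno2, 0.29 to 0.43 for Mdh2 to Mdh1, 0.52 to 0.60 for Eno2 to Eno1, 0.71 to 0.84 for Eno3 to Eno1, 0.82 to 0.92 for Slc16a3 to Slc16a1 and 1.34 to 1.5 for Aldoc to Aldoa. Adding 5 counts or using the deposited FPKM moved no ratio by more than the SD between libraries. Whether same-numbered libraries share a culture or batch is not in the labels. Their deviations from the group mean correlated at -0.0608, 0.0151 and -0.0387, and those of differently numbered libraries at -0.0462 to 0.0841. Counting noise enters these deviations, so the correlations cannot show whether the numbers mark pairs. With a replicate block 17 members rose and 21 fell, and Tpi1 did not pass (edgeR adjusted p = 0.0918).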

Other observations

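The 43 members together took 2.16, 2.14 and 2.08% of all counts in the KD libraries and 2.35, 2.42 and 2.41% in the CON libraries. These shares do not use TMM scaling. They follow scaling by library size only, under which every log2 fold change was higher by about 0.23. The glucose transporters took 0.311 to 0.313% in KD and 0.432 to 0.441% in CON, and the lower glycolytic genes 0.940 to 0.990% in KD and 1.10 to 1.16% in CON. Upper glycolysis took 0.345 to 0.358% in KD and 0.378 to 0.393% in CON. The pyruvate genes took 0.0562 to 0.0573% in KD and 0.0848 to 0.0855% in CON. The lactate genes took more in KD, at 0.139 to 0.145% against 0.102 to 0.105% in CON, and so did the citrate cycle genes, at 0.198 to 0.204% against 0.161 to 0.162%. With TMM scaling, the summed CPM of the citrate cycle members other than Mdh2 was lower in each KD library than in any CON library. The pentose phosphate genes took 0.0945 to 0.10% in KD and 0.0821 to 0.0850% in CON. With TMM scaling, the summed CPM of the 5 pentose phosphate genes overlapped between the groups.

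The second row with the symbol Aldoa, a separate gene model on chromosome 7 from 126800790 to 126809108 (GRCm38), held 117, 96 and 77 counts in KD and 83, 93 and 75 counts in CON and did not pass (edgeR adjusted p = 0.896). In the authors' deposited table, the log2 fold changes of all 43 members had the opposite sign to those given here, since that table sets CON over KD.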
